A study of Mus musculus with 10 samples.

Results

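The Fos and Jun proteins of the AP-1 (activator protein 1) family were examined through 6 genes, Fos, Fosb, Fosl2, Jun, Junb and Jund. They were taken by symbol out of 30406 genes present in both gene lists of the data, and all 6 were counted in all 10 libraries. The libraries were made with the 10x Genomics droplet method from male C57BL/6N mice over 2 months of age. The tissue was medial prefrontal cortex, and the mice had been ranked in the tube test, a contest for social dominance. Rank 1, the dominant position, and rank 4, the subordinate position, had 5 libraries each. A library pooled tissue of 2 or 3 mice, so the library was the replicate, and nothing else in the labels separated the ranks. All mice had been through tube tests, the last of them 1 day before tissue was taken, and all tissue was digested with papain for 60 min at 37 °C. Warm enzymatic digestion is known to induce early genes in brain cells, and its part in the levels below was not tested.

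AP-1 is a dimer of basic leucine zipper proteins. Jun proteins can pair with each other or with Fos proteins, whereas Fos proteins need a Jun partner, and the pair binds the palindrome TGANTCA in DNA. Most of these genes are immediate early genes, transcribed within minutes of a stimulus through factors that are already in the cell, and Fos is widely used as a mark of recently active neurons. Jund is known for a steadier level, and Junb for a weaker activity than Jun in many settings.

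In the GRCm38 annotation Fos lay at chr12:85473890-85477273 on the plus strand, Fosb at chr7:19302696-19310051 on the minus strand and Fosl2 at chr5:32135801-32157842 on the plus strand. Jun lay at chr4:95049034-95052222 on the minus strand, Junb at chr8:84974484-84978718 on the minus strand and Jund at chr8:70698949-70700616 on the plus strand. Jun and Jund had a single exon, and the longest transcript models of Junb, Fos, Fosl2 and Fosb had 2, 4, 4 and 5. Jun overlapped Junos, Junb overlapped Prdx2 and Jund overlapped Gm11175 in the annotation. Whether strand was used in counting is not given in the sources used here, so reads of these partners may be among the counts of the 3 Jun genes.

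The promoters of Fos, Jun and Junb are shown because Jun and Junb were the members found higher in Fos-positive cells of all 4 classes examined for it, as described further on. The 100 bases before the RefSeq start site (GRCm38.p6) are written 5′ to 3′ on the strand of the gene, at chr12:85473790-85473889 for Fos, chr4:95052223-95052322 for Jun and chr8:84978749-84978848 for Junb. Capitals mark TGACGT and TATAAA in Fos, CCAAT and TGACATCA in Jun, and CCAAT in Junb.
Fos: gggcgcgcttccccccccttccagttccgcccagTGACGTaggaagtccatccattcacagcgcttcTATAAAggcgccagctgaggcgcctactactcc
Jun: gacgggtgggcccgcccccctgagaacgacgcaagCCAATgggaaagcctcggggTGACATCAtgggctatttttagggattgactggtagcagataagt
Junb: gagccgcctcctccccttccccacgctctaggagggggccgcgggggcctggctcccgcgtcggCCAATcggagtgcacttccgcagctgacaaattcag
TGACGT is the core bound by the CREB family, and TGACATCA is the AP-1-like element of the Jun promoter. Both strands of the 250 bases before each start were searched. TGACGT stood in the Fos promoter from base -66 to -61 and in 6.47% of 32851 promoters, and TGACATCA in the Jun promoter from -45 to -38 and in 2.93%. TATAAA (Fos, from -33) stood in 12.4% of promoters and CCAAT (Jun, from -65, and Junb, from -36) in 33.9%. GCGGGGGCG, which Egr proteins bind, stood in the promoters of Fosb and Fosl2 and in 2.57% of all. TGANTCA (6.75% of promoters), TGACGTCA (1.55%, each holding TGACGT as well) and the CArG box (1.47%) had no match in these windows of the 6 genes. A match describes the letters and is not a measured site.

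The 10 libraries held 64937 barcodes, of which 45864 were kept, with a median of 1328 to 2675 unique molecular identifiers (UMIs, 1 per captured RNA molecule) per kept cell and a median mitochondrial share of 3.49% to 10.7%. Of 64362 distinct barcode sequences, 571 occurred in more than 1 library. Clustering did not use the 6 genes or the other early genes listed here, and it gave 13 named classes, 9 of which had enough cells to be compared. They were 16484 excitatory neurons, 2229 inhibitory neurons, 9003 astrocytes, 3187 oligodendrocyte precursors (OPCs), 2293 oligodendrocytes, 3620 microglia, 4316 endothelial cells, 1640 pericytes and 531 smooth muscle cells. Excitatory and inhibitory neuron markers were counted in each library, the labelled region itself was not checked by a marker, and the defining markers of every compared class were counted in each library. Levels are given as CPM, the UMIs of a gene per 1000000 UMIs of all cells of a class in a library, so they describe the RNA of a class and not single cells. Counts of different genes were not ranked against each other.

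Among the 9 compared classes, all 6 genes had their highest mean level in a class of blood vessel cells. Perivascular macrophages, with 20 cells in only 2 libraries and not compared, held Junb at 4889.6 CPM in rank 1 replicate 2 and 5230.3 CPM in rank 4 replicate 3, where smooth muscle cells held 5859.9 and 4624 CPM. The Fos level averaged 1154 ± 246 CPM in endothelial cells (mean ± SD, n = 10 libraries). Smooth muscle cells followed with 1117 ± 630 (n = 8) and pericytes with 764 ± 308 (n = 10). The lowest mean of the 9 was that of excitatory neurons, 123 ± 38.3 CPM, with inhibitory neurons at 152 ± 57.8, oligodendrocytes at 155 ± 119 and astrocytes at 160 ± 91.8. The lowest endothelial library (859 CPM) lay above the highest library of each of these 4 classes (at most 411). OPCs and microglia lay between, at 523 ± 514 and 253 ± 243 CPM, and both were spread widely over libraries.

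Fosb, which encodes a Fos protein and the stable splice form ΔFosB, followed a similar order. Endothelial cells averaged 442 ± 233 CPM, smooth muscle cells 294 ± 97.3, pericytes 193 ± 63.9 and OPCs 181 ± 90.1. In microglia it was at 73.2 ± 45.6, in excitatory neurons at 35.2 ± 7.94, and in inhibitory neurons, astrocytes and oligodendrocytes at 18.6 ± 7.35, 16.9 ± 12.7 and 16.4 ± 12.5. OPCs thus held Fosb above microglia in 10 of 10 libraries, and did not differ from pericytes beyond the spread over libraries. Fosl2, which encodes Fra-2, peaked in smooth muscle cells at 337 ± 235 CPM, ahead of endothelial cells (190 ± 156) and pericytes (89.4 ± 77.8). Microglia (29.8 ± 15.2), excitatory neurons (28.3 ± 7.30) and inhibitory neurons (21.8 ± 15.03) came next. OPCs, oligodendrocytes and astrocytes held 7.77 ± 6.602, 7.31 ± 7.12 and 7.001 ± 3.52 CPM. Of the 9 compared classes, OPCs thus came right after the vessel classes for Fosb but among the lowest for Fosl2.

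Jun, the partner through which Fos proteins bind DNA, averaged 1855 ± 462 CPM in endothelial cells and 1208 ± 575 in pericytes. Microglia, smooth muscle cells and OPCs held 701 ± 360, 565 ± 223 and 544 ± 212 CPM. Oligodendrocytes (215 ± 85.8), excitatory neurons (154 ± 40.03), astrocytes (115 ± 40.9) and inhibitory neurons (90.7 ± 22.7) were lower. Junb averaged 3125 ± 2090 CPM in smooth muscle cells, 2168 ± 1873 in pericytes, 2131 ± 1785 in microglia and 1944 ± 1343 in endothelial cells. It then dropped to 412 ± 238 in excitatory neurons, 236 ± 100 in OPCs, 164 ± 74.0 in inhibitory neurons, 130 ± 31.1 in astrocytes and 117 ± 44.1 in oligodendrocytes. The microglial mean thus lay among those of the vessel cells for Junb, and below all 3 of them for Fos and Fosb. Jund averaged 2914 ± 2291 CPM in pericytes, 1926 ± 1152 in endothelial cells, 1373 ± 470.0 in smooth muscle cells and 1130 ± 733 in microglia. Oligodendrocytes (734 ± 354) and OPCs (689 ± 311) lay above excitatory neurons (416 ± 158), inhibitory neurons (373 ± 138) and astrocytes (222 ± 38.4).

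**Figure D1:**
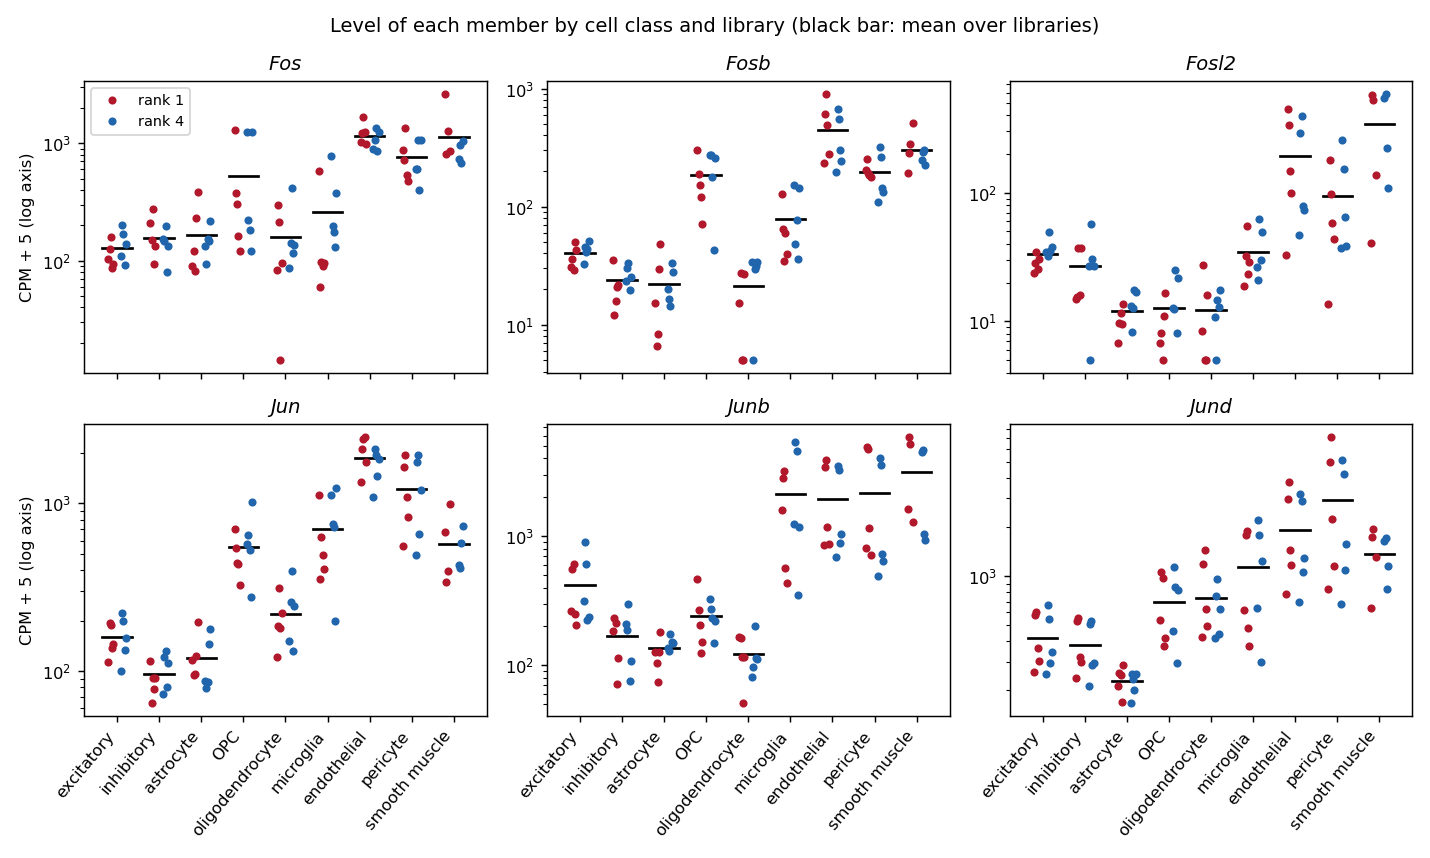
Level of each gene (CPM + 5 on a log axis) in 9 cell classes, 1 point per library in red for rank 1 and blue for rank 4, with a black bar at the mean over libraries; OPC stands for oligodendrocyte precursor. Endothelial cells, pericytes and smooth muscle cells stand highest for Fos, Fosb and Fosl2, microglia reach them for Junb, and red and blue points overlap in each class.

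Neighbours in these orders were compared within libraries by a two-sided exact sign-flip permutation test of log2(CPM + 5), and 16 of 48 pairs passed an adjusted p of 0.05. The pairs and their order came from the same values that were tested. No such count was made over all genes, so it is not a trait of this family. For Fos the single pair to pass was OPCs above microglia, by 0.92 ± 0.88 (log2, mean ± SD, higher in 9 of 10 libraries, adjusted exact p = 0.0281). The Fos levels of the 3 vessel classes, and those of the 5 classes from microglia down, did not differ between neighbours beyond the spread over libraries. For Fosb, OPCs lay above microglia by 1.25 ± 0.67 (10 of 10 libraries, adjusted exact p = 0.0156) and excitatory above inhibitory neurons by 0.81 ± 0.51 (9 of 10, adjusted exact p = 0.0208). For Fosl2 the order smooth muscle cells, endothelial cells, pericytes, microglia passed at each step, with endothelial cells 1.00 ± 0.55 above pericytes (10 of 10 libraries, adjusted exact p = 0.0156). For Jun, endothelial cells passed above pericytes (0.74 ± 0.47), OPCs above oligodendrocytes (1.32 ± 0.72) and oligodendrocytes above excitatory neurons (0.42 ± 0.35). For Junb the largest step was from endothelial cells to excitatory neurons, 2.09 ± 0.45 (10 of 10 libraries, adjusted exact p = 0.0156), whereas pericytes, microglia and endothelial cells could not be ordered. The other Junb steps to pass were smooth muscle cells above pericytes (0.48 ± 0.32) and OPCs above inhibitory neurons (0.55 ± 0.52). For Jund, pericytes passed above endothelial cells (0.39 ± 0.36), OPCs above excitatory neurons (0.67 ± 0.41), excitatory above inhibitory neurons (0.15 ± 0.11) and inhibitory neurons above astrocytes (0.67 ± 0.45). With cells of at least 1000 genes and at most 10% mitochondrial UMIs 4 pairs passed, 9 passed without rank 1 replicate 5, and 10 without rank 1 replicate 4, rank 4 replicate 4 or rank 4 replicate 5.

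A set of 3 class pairs was also tested gene by gene with edgeR's quasi-likelihood test on summed UMIs with the library as a block (Benjamini-Hochberg adjustment over all genes of the pair). The family passed in 11 of 17 tests, in comparisons where 48.3% (excitatory against inhibitory neurons), 50.6% (astrocytes against oligodendrocytes) and 49.3% (endothelial cells against pericytes) of all genes passed. Excitatory neurons exceeded inhibitory neurons in Junb by 1.18 (log2, SE 0.12, edgeR adjusted p = 4.15e-09, higher in 10 of 10 libraries), Fosb by 0.96 (SE 0.16) and Jun by 0.66 (SE 0.10). Fos went the other way at -0.34 (SE 0.11, adjusted p = 0.0122, lower in 7 of 10 libraries). That last call did not hold under DESeq2 (adjusted p = 0.0816), with the stricter cell limits (0.161), or without rank 1 replicate 1 (0.140), rank 1 replicate 3 (0.0954) or rank 4 replicate 1 (0.0647). Fosl2 (0.31, SE 0.15) and Jund (0.13, SE 0.059) did not pass there (adjusted p = 0.0896 and 0.0667), but both passed in several of the alternatives tried, among them without a filter on low counts.

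Astrocytes held less Jund than oligodendrocytes, by -1.65 (SE 0.14, lower in 10 of 10 libraries), and less Jun, by -0.88 (SE 0.20, lower in 9 of 10). Fos (0.16, SE 0.30), Fosb (-0.03, SE 0.28) and Junb (0.13, SE 0.15) did not pass between these 2 glial classes. Endothelial cells exceeded pericytes in Fosl2 by 1.16 (SE 0.16), Fosb by 1.10 (SE 0.14) and Fos by 0.74 (SE 0.11), each in 10 of 10 libraries, and in Jun by 0.84 (SE 0.11) in 9 of 10. Jund was lower in endothelial cells, by -0.29 (SE 0.092, adjusted p = 0.0103, lower in 8 of 10 libraries), though not with the stricter cell limits (adjusted p = 0.379) or without a filter on low counts (0.448). Junb was 0.17 higher (SE 0.097) and did not pass, except without that filter.

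Within classes the levels also varied, described here over libraries without a test since these subclasses were picked after their levels were seen. Among the inhibitory neurons Fos averaged 225 ± 53.3 CPM in Vip cells and 69.9 ± 41.0 in Pvalb cells, and was higher in Vip cells in 5 of 5 libraries with enough of both. Fosl2 averaged 36.5 ± 18.3 CPM in layer 5 pyramidal tract neurons and 7.01 ± 7.15 in layer 5/6 near-projecting neurons, higher in the first in 8 of 8 libraries. Junb averaged 344 ± 160 CPM in layer 6 corticothalamic neurons and 183 ± 100 in near-projecting neurons, higher in the first in 7 of 7.

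Shares of cells with a UMI were taken over cells of at least 1000 UMIs, each thinned to that depth. This left out 800 of 1640 pericytes (232 in rank 1 and 568 in rank 4), 1478 of 4316 endothelial cells (453 and 1025), 1101 of 3620 microglia (602 and 499) and 2077 of 16484 excitatory neurons (451 and 1626). Jun was found in 67.4% of endothelial cells (mean over libraries), 42.1% of pericytes, 13.2% of excitatory neurons and 10.3% of astrocytes. Fos was found in 46.8% of smooth muscle cells, 40.3% of endothelial cells, 30.3% of pericytes and 22.7% of OPCs, against 13.8% of inhibitory neurons, 11.6% of astrocytes and 9.15% of excitatory neurons. Without thinning the Fos shares of excitatory neurons (median 2429 UMIs) and endothelial cells (median 1244 UMIs) were 20.9% and 44.5%. As a rough gauge of free RNA in the droplets, 312 haemoglobin-rich erythroid barcodes (median 2606 UMIs before thinning) were read at the same depth. RNA of the erythroid cells themselves was not separated, and haemoglobin UMIs left fewer UMIs for other genes in these barcodes. Fos was counted in 8.33% of them (exact 95% binomial interval 5.52% to 11.97%), Jun in 8.65% (5.78% to 12.3%), Junb in 9.94% (6.85% to 13.8%), Jund in 14.4% (10.7% to 18.8%), Fosb in 0.962% and Fosl2 in 1.28%; the intervals cover counting error only. Most of these barcodes came from replicate 1 of both ranks (104 and 149 of 325 before thinning), where their Fos level was 59.9 and 72.1 CPM and that of excitatory neurons 99.0 and 104 CPM. In rank 4 replicate 5, the other library with at least 20 of them, the order was the reverse, with Fos at 231 CPM in 30 erythroid barcodes and 133 CPM in excitatory neurons. The Fos shares of excitatory neurons, oligodendrocytes (9.19%) and astrocytes lay within these intervals. So did the Jun shares of inhibitory neurons (8.76%) and astrocytes. The same held for the Junb shares of inhibitory neurons (12.3%), astrocytes (11.7%) and oligodendrocytes (11.5%). These shares did not stand above those of the erythroid barcodes, and the part of free RNA in them was not tested. The intervals rest on barcodes of few libraries. For Fosl2 the interval, from 4 of 312 barcodes, reached up to 3.25%, and the shares of excitatory neurons (2.85%), inhibitory neurons (2.07%), microglia (2.62%), OPCs, astrocytes and oligodendrocytes lay under that bound. The Fosl2 level of excitatory neurons was above that of the erythroid barcodes in the 3 libraries with at least 20 of these. It was 18.9 against 4.99 CPM in rank 1 replicate 1 and 29.3 against 9.49 CPM in rank 4 replicate 1, from 2 and 5 erythroid UMIs. In rank 4 replicate 5 it was 32.5 CPM, with no Fosl2 UMI in the 30 erythroid barcodes. The Junb (23.2%) and Jund (32.2%) shares of excitatory neurons lay above them, as did the Fos, Jun, Junb and Jund shares of endothelial cells, pericytes and smooth muscle cells.

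At this depth 53.8% ± 20.8 of endothelial cells (n = 10 libraries), 56.0% ± 9.97 of smooth muscle cells (n = 8) and 36.7% ± 19.6 of pericytes (n = 9) held 3 or more of the 6 genes at once. The share was 24.4% ± 14.5 in microglia and 16.6% ± 11.4 in OPCs. It was 5.51% ± 3.32 in excitatory neurons, 4.01% ± 3.86 in oligodendrocytes, 3.15% ± 2.77 in inhibitory neurons and 1.70% ± 1.30 in astrocytes. None of the 6 was counted in 9.15% ± 6.80 of endothelial cells and in 56.5% ± 4.56 of astrocytes. Among OPCs the share with 3 or more ran from 2.44% in the lowest library to 38.5% in rank 4 replicate 5.

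**Figure D2:**
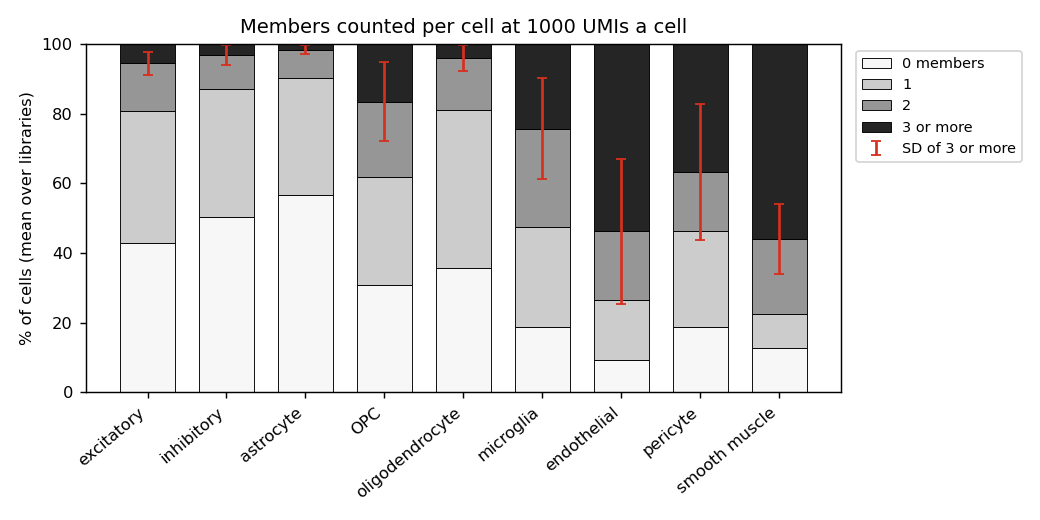
Share of cells (%, mean over libraries) holding 0, 1, 2 or 3 and more of the 6 genes in each class, each cell thinned to 1000 UMIs; the red bar is the SD over libraries of the share with 3 or more. Endothelial and smooth muscle cells exceed 50% with 3 or more, and astrocytes and both neuron classes stay below 6%.

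Cells that held a Fos UMI were then set against cells of the same class and library that held none, at 1000 UMIs per cell, to ask which other members were counted in the same cells. The other members were higher with Fos in 14 of 17 tests (edgeR quasi-likelihood test, library as block, adjusted over all genes of the class). The filter on low counts could admit a gene through the Fos-positive cells alone. Among 1219 Fos-positive and 13188 Fos-negative excitatory neurons, all 5 passed. Junb was counted in 47.5% ± 18.6 of Fos-positive and 20.6% ± 5.41 of the other cells, and was higher in Fos-positive cells in 10 of 10 libraries (log2 1.85, SE 0.078, edgeR adjusted p = 1.19e-60). Its lowest share among Fos-positive cells, 27.1%, lay below its highest among the others, 31.2%, so the ranges over libraries overlapped slightly. Fosb was counted in 10.3% ± 5.15 against 2.49% ± 0.934 (log2 1.67, SE 0.18) and Fosl2 in 7.28% ± 4.10 against 2.39% ± 0.566 (1.30, SE 0.21). Jun was counted in 21.3% ± 7.42 against 12.3% ± 2.15 (0.88, SE 0.11) and Jund in 42.4% ± 16.7 against 31.1% ± 10.2 (0.56, SE 0.077). In these neurons 1.04% of all genes tested were called higher in Fos-positive cells. Subclasses were not separated here, and how many of these Fos UMIs came from free RNA was not tested.

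In endothelial cells (1099 with and 1739 without a Fos UMI, n = 10 libraries) Jun was counted in 83.2% ± 7.20 of Fos-positive and 56.8% ± 9.74 of Fos-negative cells (log2 1.39, SE 0.069, edgeR adjusted p = 1.03e-20). Junb was counted in 75.1% ± 13.4 against 44.0% ± 21.6 (1.37, SE 0.11), Fosb in 37.7% ± 7.33 against 17.1% ± 12.7 (1.55, SE 0.18) and Jund in 80.0% ± 14.8 against 62.6% ± 18.8 (0.75, SE 0.085). All 4 were higher with Fos in 10 of 10 libraries. Fosl2 (0.33, SE 0.18, adjusted p = 0.492) did not pass, except in unthinned cells (0.81, adjusted p = 6.77e-05). Of all endothelial genes tested, 3.82% were called, 3.73% as higher with Fos.

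In microglia 4 libraries had enough cells on both sides. Fosb (1.52, SE 0.23), Jun (1.12, SE 0.15) and Junb (0.88, SE 0.14) passed, where 0.891% of genes were called higher, and Jun was counted in 61.3% ± 14.2 of Fos-positive and 36.3% ± 8.24 of Fos-negative microglia. Jund (0.43, SE 0.15, adjusted p = 0.259) passed only in cells thinned to 2000 UMIs and without rank 4 replicate 3. In astrocytes (9 libraries; 0.184% of genes called higher) Jun (0.66, SE 0.14, adjusted p = 0.00382) and Junb (0.59, SE 0.13, adjusted p = 0.00680) passed. The share of astrocytes with Fos did not stand above that of the erythroid barcodes, and the part of free RNA here was not tested. Neither Jun nor Junb held without rank 1 replicate 5 (edgeR adjusted p = 0.659 and 0.946). Jun did not hold with the stricter cell limits (0.107) or at 2000 UMIs (0.873), and Junb did not hold without rank 4 replicate 3 (0.0537).

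Outside the family, co-induced early genes were among the leading genes in each class. In excitatory neurons the 8 smallest p-values belonged to Junb, Egr4, Gadd45g, Btg2, Npas4, Dusp1, Gadd45b and Scg2. Egr4, a zinc finger early gene, was 2.29 higher with Fos (log2, SE 0.11), Btg2, which restrains cell division, 2.04 (SE 0.12), and Npas4, a neuron-specific early factor, 1.84 (SE 0.11). Scg2, a secreted granule protein and late response gene, was 1.03 higher (SE 0.089). In endothelial cells they were Jun, Hspa1a (1.34, SE 0.092), Btg2 (1.33, SE 0.095), Cyr61, Egr1, Dusp1, Junb and Zfp36. Cyr61, which encodes a matrix protein, was 1.88 higher (SE 0.14) and Zfp36, which encodes a protein that destabilises early gene mRNAs, 1.65 (SE 0.13). In microglia Egr1 (1.33, SE 0.17), Ier3 (1.41, SE 0.18), Jun, Fosb, Ier2, Dusp1, Junb and Btg2 led, and in astrocytes Nr4a1 (0.99, SE 0.18), Jun, Coq10b, Egr1, Btg2, Cyr61, Junb and Sfrp1.

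Of 17 co-induced immediate early genes listed, 14, 6, 9 and 11 were tested in excitatory neurons, astrocytes, microglia and endothelial cells. Called higher with Fos were 12, 4, 8 and 11 of them, against 1.04%, 0.184%, 0.891% and 3.73% of all genes tested. The median log2 differences of those tested were 1.40, 0.71, 1.06 and 1.15, with a median over all genes between -0.03 and -0.02. As for the members, the filter on low counts could admit a gene through the Fos-positive cells alone. Feedback regulators include phosphatases of the upstream kinases and proteins that shorten the life of early mRNAs. They were called higher in 3 of 6, 0 of 5, 4 of 10 and 6 of 8. Late response genes were called higher in 4 of 7 in excitatory neurons and in 0 of 3, 0 of 7 and 0 of 1 elsewhere. Other bZIP partners were called in 0 of 4, 0 of 4, 1 of 6 and 2 of 2, and the upstream kinases and factors, of which 17, 7, 11 and 6 were tested, in none. None of these lists had a gene called lower.

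**Figure D3:**
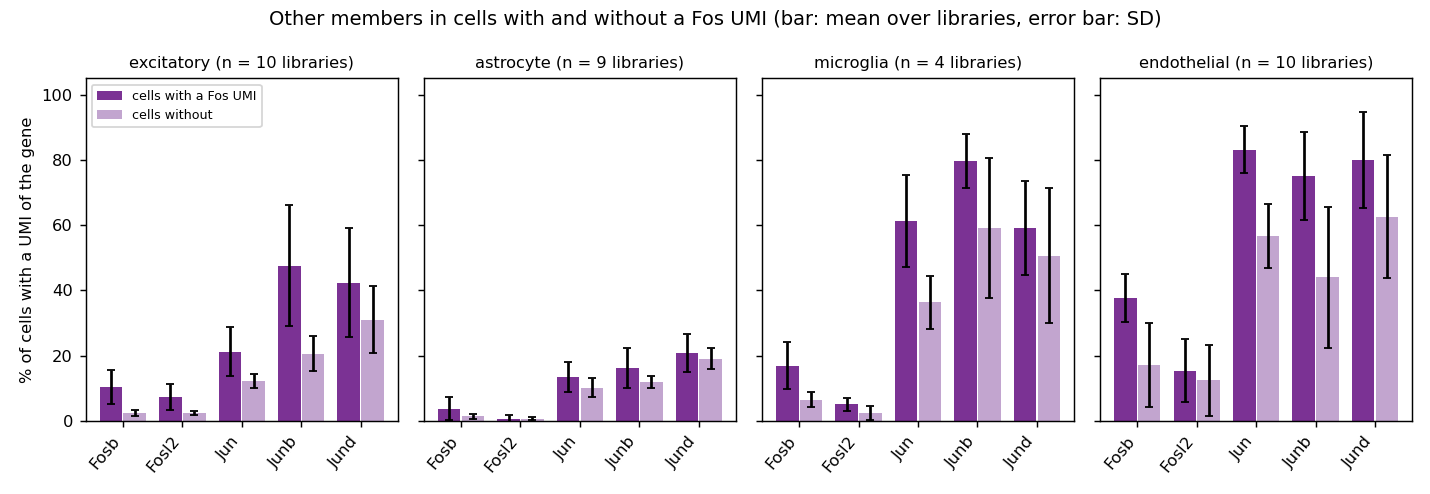
Share of cells (%) with a UMI of each other member among cells with (dark) and without (light) a Fos UMI, each cell thinned to 1000 UMIs; bars are means and error bars SDs over libraries. Dark bars exceed light ones most for Junb in excitatory neurons (47.5% against 20.6%) and for Junb and Jun in endothelial cells; in astrocytes the bars differ by less than the SD of the dark bars.

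Within several classes Junb, Jund and Fosl2 varied between libraries along the replicate number, a pattern described after it was seen. Junb in endothelial cells was at 856, 3404, 3857, 1180.2 and 870.0 CPM in replicates 1 to 5 of rank 1 and at 683, 3461, 3226, 875 and 1027 CPM in rank 4. Replicates 2 and 3 of both ranks were high and did not overlap with the others. In microglia Junb was at 1601, 2809, 3207, 563 and 427 CPM in rank 1 and at 1233, 5375, 4575, 343 and 1178 CPM in rank 4, with the same 4 libraries highest. In excitatory neurons it was at 256, 549, 602, 243 and 199 CPM in rank 1 and at 310, 899, 609, 221 and 231 CPM in rank 4, again highest in replicates 2 and 3. In astrocytes, where Junb lay between 69.9 and 175 CPM, the lowest 2 libraries were instead replicates 3 and 2 of rank 1.

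Jund in pericytes was at 826, 5023, 7138, 2251 and 1144 CPM in rank 1 and at 672, 5163, 4258, 1092 and 1569 CPM in rank 4. Fosl2 in endothelial cells was at 27.7, 442, 334, 142 and 94.4 CPM in rank 1 and at 42.3, 285, 387, 73.6 and 69.0 CPM in rank 4. Both were highest in replicates 2 and 3 and lowest in replicate 1. Fos took another course. In endothelial cells it was at 1021, 1208, 1678, 1249.8 and 977 CPM in rank 1 and at 893, 1065, 1354, 859 and 1232 CPM in rank 4, less than 2 times from lowest to highest. In OPCs it was at 1293, 372, 297, 158 and 117 CPM in rank 1 and at 1248, 218, 178, 116 and 1237 CPM in rank 4. Replicate 1 of both ranks and replicate 5 of rank 4 were high, and the other 7 libraries lay at 372 CPM or lower.

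The agreement of same-numbered libraries was put as an intraclass correlation of log2(CPM + 5) over the 5 replicate numbers, a description with no test. It was 0.96 for Junb and 0.95 for Jund in endothelial cells, 0.94 and 0.89 in pericytes and 0.90 and 0.94 in excitatory neurons. The medians over all genes of at least 20 CPM were 0.62, 0.43 and 0.80 in these classes, so much of this agreement was shared by other genes. For Fos it was 0.37, 0.42 and 0.58. In endothelial cells the pair means of Junb ranged over 2.20 (log2), while its 2 ranks differed by 0.25 on average within a pair. For Fos in endothelial cells the figures were 0.66 and 0.31.

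**Figure D4:**
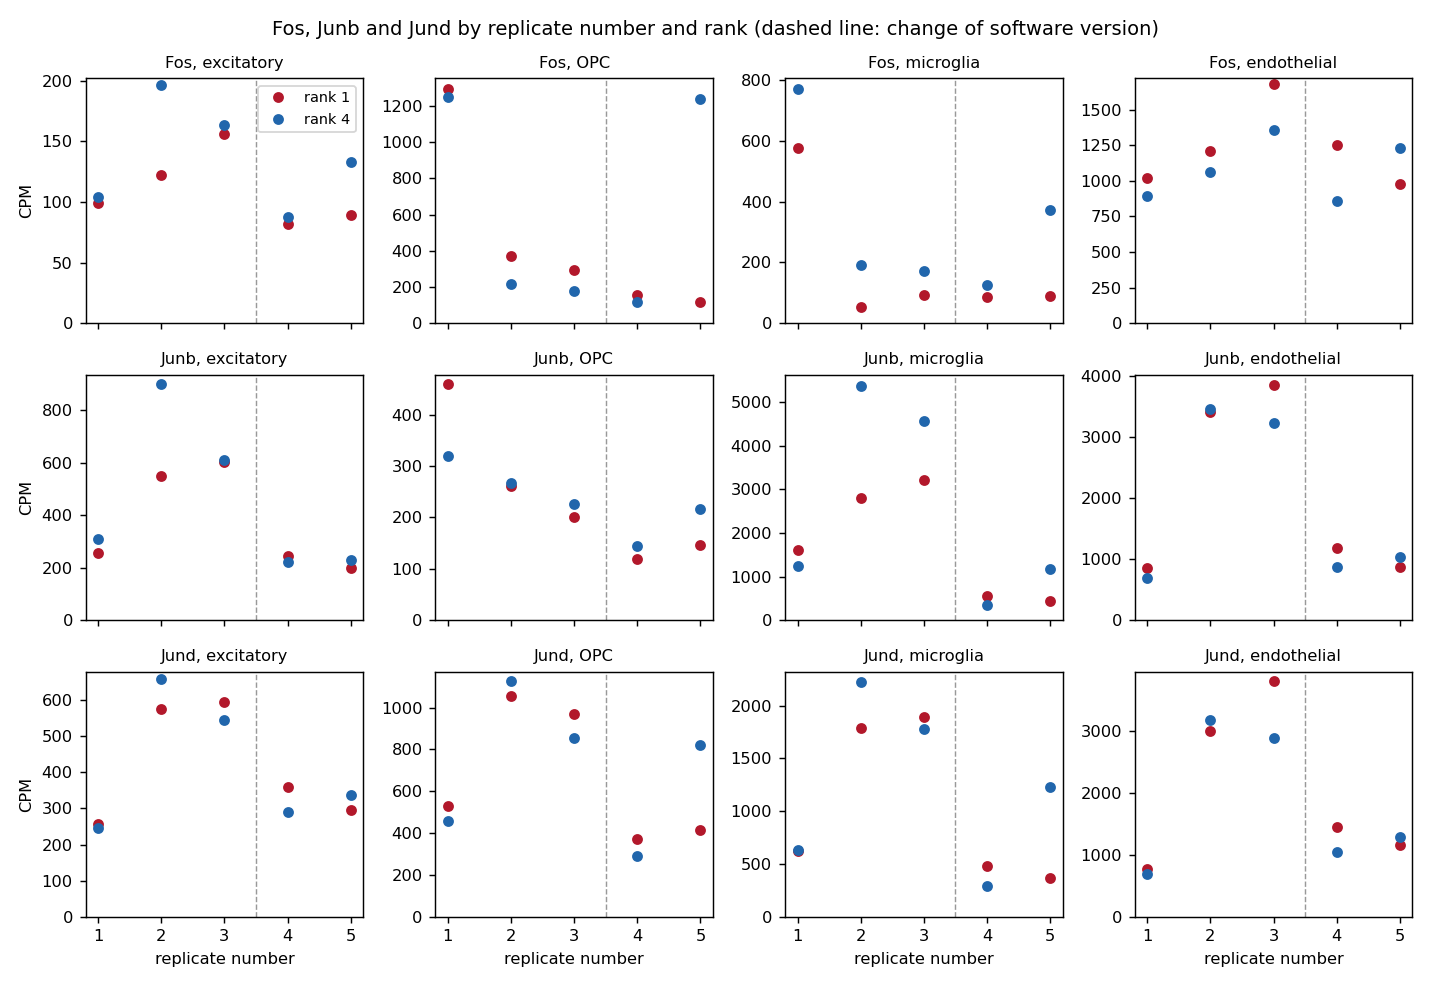
Fos, Junb and Jund (CPM, linear axes from 0) by replicate number in 4 classes, red for rank 1 and blue for rank 4; the dashed line separates replicates 1 to 3 from replicates 4 and 5, whose files name different software versions. Junb and Jund are highest in replicates 2 and 3 of both ranks in excitatory neurons, microglia and endothelial cells, whereas Fos in OPCs is highest in replicate 1 of both ranks and replicate 5 of rank 4.

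The file headers give software version 3.1.0 for replicates 1 to 3 and 4.0.0 for replicates 4 and 5 of both ranks. With rank in the fit, Junb was lower in replicates 4 and 5 in 7 of 9 classes, by between -0.91 (OPCs, SE 0.25) and -2.71 (microglia, SE 0.54; edgeR adjusted p = 0.00517). Jund was lower there in microglia (-1.76) and OPCs (-0.81), Fos in excitatory (-0.54) and inhibitory neurons (-0.90), and Fosb in OPCs (-0.93). Other calls went the opposite way, with Fosb (1.47), Fos (0.94) and Jun (0.62) higher in replicates 4 and 5 in astrocytes, Jun in smooth muscle cells (1.014) and Fosb in excitatory neurons (0.44). In the same contrast 25.7% of all genes passed in endothelial cells, 32.5% in pericytes, 27.5% in smooth muscle cells, 35.1% in microglia, 35.6% in oligodendrocytes, 36.6% in inhibitory neurons, 39.6% in OPCs, 44.9% in astrocytes and 52.4% in excitatory neurons. Junb in replicate 1 (version 3.1.0) lay below replicates 4 and 5 in endothelial cells, and in pericytes (809 and 487 CPM) it overlapped with them. In microglia and excitatory neurons all 6 libraries of version 3.1.0 lay above all 4 of version 4.0.0. Other values moved with the same libraries. The summed level of 6 excitatory neuron markers in astrocytes, a sign of free or admixed RNA, was 65.3 to 77.7 CPM in replicates 2 and 3 of both ranks and 254 to 710 CPM in the other libraries, with at most 1 of the 6 at 0. The part of this, of dissociation and of handling in the Junb levels was not tested.

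Likeness of pattern was described by Pearson correlation of log2(CPM + 5) with no p-value, among 8250 genes. Over the 9 class means the nearest to Fos were Lyar (r = 0.99), Calu and Akap12, to Fosb Nr4a1 (0.98), Larp7 and Hnrnpab, and to Fosl2 Myo1c (0.97), Crem and Chmp3. To Jun they were Samhd1 (0.95), Eif3k and Med28, to Junb Ehd4 (0.96), Btg2 and Ier3, and to Jund H3f3b (0.98), Hspa1a and Dnajb1. Over 88 deviations of library values from their class mean, points that share libraries and replicate numbers, Fos was nearest to Jun (0.59), Chchd7 and Gemin7, and Fosb to Klf4 (0.57), Fos and Jun. Fosl2 was nearest to Nr4a2 (0.78), Lmna and Lrrc32, Jun to Fos, Klf4 and Jund, Junb to Csrnp1 (0.85), Dusp1 and Hspa8, and Jund to Ppp1r15a (0.89), H3f3b and Hspa1a. Junb and Jund had an r of 0.80 with each other over these deviations, and Fos an r of 0.20 with Jund and 0.07 with Fosl2. Relations of Fos with the other members were counted over libraries, without a like count over all genes. Across the 10 libraries 11 of 20 relations of Fos with another member within a class passed an adjusted permutation p of 0.05. None passed without the 2 libraries farthest from the median of Fos, 2 passed within the 6 libraries of version 3.1.0, and same-numbered libraries were alike, so these relations rest on few libraries and no r is given.

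The ranks were compared within each class with edgeR's quasi-likelihood test on summed UMIs, with the software version as a covariate and Benjamini-Hochberg adjustment over all genes of the class. Of 54 combinations of gene and class, 4 had too few counts to be tested (Fosl2 in OPCs, oligodendrocytes and microglia, and Fosb in oligodendrocytes). None of the other 50 passed, 2 had an unadjusted p under 0.05, and DESeq2 called none either, with no adjusted p for Fos in OPCs. The background was the same, 0% of 61512 tests of genes in classes, of which 1438 had an unadjusted p under 0.05. In none of the 54 were the libraries of one rank all above those of the other. The share of all genes with such a separation was not counted, so this describes the 54 combinations only. These p-values measure the spread between pools of mice.

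In excitatory neurons each of the 6 estimates was below 0 or, for Jund, at 0, with a median of -0.24 against -0.004 over all genes. Fosl2 was at 18.9, 23.5, 29.9, 20.4 and 25.8 CPM in replicates 1 to 5 of rank 1 and at 29.3, 27.4, 44.7, 30.5 and 32.5 CPM in rank 4. It was lower in rank 1 in each of the 5 pairs, but the ranges overlapped through replicate 3 of rank 1. The difference was -0.49 (log2, rank 1 minus rank 4, SE 0.17, edgeR adjusted p = 1.00). By software version it was -0.52 (3.1.0) and -0.42 (4.0.0). With the replicate number as a block it was -0.48 (SE 0.11, adjusted p = 0.0582), still short of the threshold. Fos was at 99.0, 122, 156, 81.8 and 89.0 CPM in rank 1 and at 104, 196, 163, 87.7 and 133 CPM in rank 4, lower in rank 1 in 5 of 5 pairs with overlapping ranges. Its difference was -0.34 (SE 0.19, adjusted p = 1.00) and -0.31 with the block (SE 0.10, adjusted p = 0.216). Jund (0.00, SE 0.27) and Jun (-0.08, SE 0.22) were nearer to 0.

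In microglia Fos was at 575, 54.2, 92.7, 85.7 and 90.7 CPM in rank 1 and at 768, 192, 171, 125 and 374 CPM in rank 4. Replicate 1 of both ranks was high, rank 1 was lower in each pair, and the ranges overlapped. The difference was -1.01 (SE 0.58, adjusted p = 1.00) and -1.13 with the block (SE 0.26, adjusted p = 0.233). By software version it was -0.72 (3.1.0) and -1.60 (4.0.0). Excitatory neuron markers summed in microglia to 110 to 1084 CPM in rank 1 and 58.8 to 1397 CPM in rank 4, with at most 2 of the 6 at 0. Erythroid markers there summed to 3590 CPM in replicate 1 of rank 1 and 9485 CPM in replicate 1 of rank 4. In the other libraries they summed to at most 1268 CPM, with at most 1 of the 5 erythroid markers at 0 in any library. The part of either in the Fos levels was not tested. In astrocytes Fosl2, at 5.27 ± 2.54 and 8.73 ± 3.73 CPM, differed by -0.93 (SE 0.37, adjusted p = 1.00). In OPCs Fos was higher in rank 1 in 4 of 5 pairs, and with the block it differed by -0.38 (SE 0.25, edgeR adjusted p = 0.678). It differed by -0.72 (SE 0.68) over all libraries, by 0.20 in version 3.1.0 and by -2.33 in version 4.0.0. That last value passed (edgeR adjusted p = 0.00303), with 0.00562% of genes called in that split, and it rested on replicate 5 (117 against 1237 CPM) with replicate 4 at 158 against 116 CPM.

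In endothelial cells the 6 genes were 0.11 to 0.36 higher in rank 1, with SEs of 0.22 to 0.67, and none passed. In the subclass led by arterial clusters Fos (-0.14, SE 0.22), Jun (-0.16, SE 0.20) and Jund (-0.08, SE 0.35) had estimates below 0. Junb in pericytes was at 809, 4917, 4728, 1152 and 710 CPM in rank 1 and at 487, 3989, 3530, 718 and 639 CPM in rank 4, higher in rank 1 in 5 of 5 pairs although the ranges overlapped. The difference was 0.41 (SE 0.51, adjusted p = 1.00) and 0.43 with the block (SE 0.13, adjusted p = 0.311). With the block 10 of the 50 combinations had an unadjusted p under 0.05 and none passed. Over all genes 6295 of 61512 tests had an unadjusted p under 0.05 with the block. Of all genes 0.276% passed over the 9 classes, 0.543% in excitatory neurons, 0.527% in endothelial cells, 0.0543% in OPCs and 0% in microglia and pericytes.

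**Figure D5:**
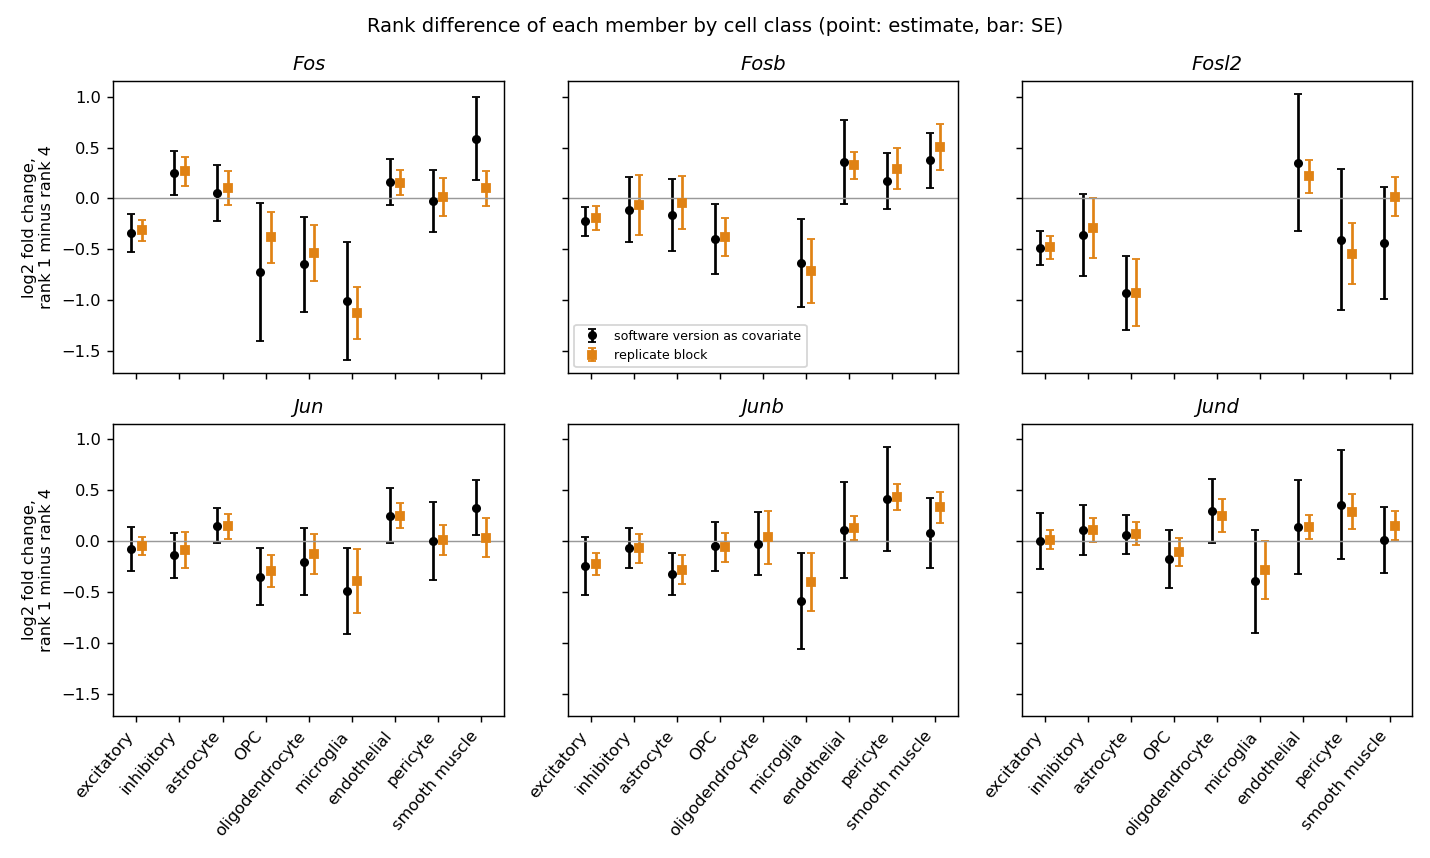
Difference between the ranks (log2 fold change, rank 1 minus rank 4) of each gene in each class, as a point with its SE, from the fit with the software version as covariate (black circles) and with the replicate number as a block (orange squares); combinations with too few counts have no point. No point passed the adjusted threshold in either fit; the block has the smaller SE, and Fosl2 lies near -0.5 in excitatory neurons and -0.9 in astrocytes in both fits.

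The share of cells with a UMI of each gene, at 1000 UMIs per cell, did not pass between ranks in any of 54 exact permutation tests (adjusted p = 1.00 throughout). The smallest possible exact p was 0.00794 with 5 libraries per rank. After adjustment over 54 tests a single share at that value could not pass, so the absence of calls was largely set by the design. Among excitatory neurons Fos was counted in 8.19% ± 1.63 of the rank 1 cells and 10.1% ± 2.34 of the rank 4 cells (5 libraries each, two-sided exact permutation p = 0.175). Whether the rank difference in excitatory neurons differed from that in another class was tested for 24 combinations by exact permutation of rank. None passed, and here too a single combination at the smallest exact p could not pass. The smallest p were those of Fos against endothelial cells, -0.47 (log2; exact p = 0.00794, the smallest the design allows, adjusted p = 0.190), and of Jun against endothelial cells, -0.31 (exact p = 0.0159, adjusted p = 0.190).

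In 14 subclasses of excitatory and inhibitory neurons, endothelial cells and microglia, 72 further tests of the 6 genes gave no call with the version covariate, with 6 unadjusted p under 0.05. The background was 0% of 83565 tests, of which 3154 had an unadjusted p under 0.05. Some of the clusters pooled in these subclasses led with genes of other cell types, among them 124 endothelial cells with pericyte and smooth muscle genes and 87 microglia with OPC and astrocyte genes. With the replicate block 1 passed against a background of 0.279%, which was Fos in inhibitory neurons of unnamed clusters, 1.21 higher in rank 1 (SE 0.30, edgeR adjusted p = 0.0216). It rested on 3 libraries per rank and was chosen after its value was seen. These clusters were mixed: haemoglobin genes were among the 10 leading genes of the largest (357 cells) and of another (50 cells), and the excitatory marker Slc17a7 among those of a cluster of 63 cells.

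None of the other lists of the pathway held a gene that passed between ranks in a class with the version covariate. Of the co-induced immediate early genes, 17 were tested in excitatory neurons with a median of -0.21 (13 negative) and 14 in endothelial cells with a median of 0.15 (12 positive). With the replicate block, where 0.543% of all genes were called in excitatory neurons, 1 of these 17 was called higher there, Btg2 (0.73, edgeR adjusted p = 0.0231), and 2 lower, Egr1 (-0.55, 0.0384) and Nr4a1 (-0.53, 0.0413). Late response genes had 3 of 12 called lower there, Nptx2 (-0.69, edgeR adjusted p = 0.0231), Bdnf (-0.53, 0.0299) and Homer1 (-0.49, 0.0415), which encode a synaptic pentraxin, a neurotrophin and a postsynaptic scaffold. Of 12 feedback regulators 1 was called, the ERK phosphatase gene Dusp6 (-0.49, 0.0345). None of 9 bZIP partners or 21 upstream kinases and factors was called. In astrocytes, where 0.403% of all genes were called with the block, Egr3 (-1.07, 0.0163) and Nr4a1 (-0.69, 0.0498) were lower and Inhba, an activin subunit gene, higher (1.14, 0.00673).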

How the data were processed

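Single-cell RNA-seq was analysed from 10 libraries. The authors deposited raw UMI counts per gene and cell barcode, made with Cell Ranger 4.0.0 on mm10 per the submitters' processing notes; per the file headers the software version was 3.1.0 for replicates 1 to 3 and 4.0.0 for replicates 4 and 5 of both ranks. Library totals ran from 4442750 to 29278466 UMIs. Cells with at least 500 genes and at most 15% mitochondrial UMIs were kept, 3915 doublets called by Scrublet were removed (1 library took a replaced threshold), and cells were clustered in scanpy 1.11.5 without the 38 early genes and members. UMIs were summed per library and class (at least 20 cells) and tested with edgeR 4.0.16 (quasi-likelihood, TMM, R 4.3.3), Benjamini-Hochberg adjusted over all genes of a class, at 0.05; DESeq2 1.42.0 was an alternative. The rank fits held the software version as covariate. The scripts were checked on simulated data.

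Each library pools mice, so p-values measure the spread between pools. Replicate numbers are shared by the ranks. Same-numbered libraries deviated together from their group means (r between 0.53 and 0.87 in 20 of 20 pairs over 4 classes), although in only 9 of the 20 was each library the other's best match. The numbers were taken to pair the libraries, and the block is given where it bears on a result.

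The members and gene lists were chosen with earlier results of these data known. Named were all 6 members in the 9 classes, the list genes of smallest p (up to 3 per list and class), the 3 genes most alike per member, and the 8 leading genes in Fos-positive cells. Perivascular macrophages had 20 cells in only 2 libraries and were not compared. The fits by subclass, the version contrast and the intraclass correlations were added after seeing the data.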

Additional observations from a re-analysis of the deposited data

Results flagged for a closer look

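In 6 of 108 groups of a member, a class and a rank, 1 library stood apart by Dixon's ratio of its gap to the range of the group, and about 5 such groups are due by chance. Fos in OPCs of rank 1 was at 1293 CPM in replicate 1 and at most 372 CPM in the others (ratio 0.783). Fos in microglia of rank 1 was at 575 CPM in the same library, next to 92.7 CPM (ratio 0.926). In rank 4, replicate 1 was also the highest for Fos in these 2 classes (1248 and 768 CPM). Oligodendrocytes of rank 4 replicate 3 held 411 CPM of Fos, next to 138 (ratio 0.8293), and 197 CPM of Junb, next to 109 (ratio 0.730). Fosb was not counted in oligodendrocytes of rank 4 replicate 2, where the nearest library held 24.3 CPM (ratio 0.834). Jun in astrocytes of rank 1 replicate 5 was at 192 CPM, next to 118 CPM (ratio 0.716), and the Fos level there was 378 CPM, the highest of the 10 libraries.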

How the results depend on the processing

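No combination of member and class passed between ranks in any alternative, with the exception of the fit within replicates 4 and 5, where 1 of 45 passed (Fos in OPCs). Pairing by the replicate block left 0 calls of 50. For the 54 shares and the 24 differences between classes a paired call was not possible. An exact sign-flip test of 5 pairs cannot give a p below 0.0625. The 16 neighbour pairs became 4 with at least 1000 genes and at most 10% mitochondrial UMIs and 9 to 16 when 1 library was left out. The 11 relations between Fos and another member over libraries became 0 without the 2 libraries farthest from the median of Fos, 2 within version 3.1.0 and 6 of 15 with the stricter cell limits. Counts of calls between classes (11) and in Fos-positive cells (14) stayed within 1.5 times in all alternatives run. Between astrocytes and oligodendrocytes the uncalled Fosb difference of -0.03 turned to 0.0059 under DESeq2, 0.011 with members in the clustering, 0.038 at resolution 0.5 and 0.12 with relative log expression size factors, and ran from -0.11 to 0.22 when 1 library was left out. The uncalled Fos difference of 0.16 turned to -0.19 with the stricter cell limits and ran from -0.070 to 0.61. The cause was not tested. Fosl2 in OPCs, oligodendrocytes and microglia and Fosb in oligodendrocytes had too few counts for the main rank test. None of these passed in the alternatives that tested them.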
